A study of Danio rerio with 32 samples.

Results

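Fish-to-fish variation of mRNA levels in skeletal muscle was described in 14 of the 16 muscle libraries of a zebrafish study that holds 32 libraries in all. The members were the muscle libraries by title, apart from replicate 6 of both genotypes, which left 7 wild-type fish (called WT 1 to WT 8) and 7 gys2 knockout fish (KO 1 to KO 8). All fish were adult females of the AB strain, kept under one light and temperature regime. The groups were wild type and a knockout of gys2, the gene for the liver form of glycogen synthase, the enzyme that builds glycogen. The labels say neither how many mutant lines or clutches the fish came from nor at what time of day or after what feeding they were sampled. The 2 genotypes were not contrasted. Residual SDs, correlations, group means and components were computed on values centred on the mean of each genotype. They describe how fish of the same genotype differed from each other. Levels in CPM, the fish named as highest or lowest by CPM, and the SDs between pairs of libraries were not centred. These hold any difference between the genotypes as well.

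Zebrafish trunk muscle is made mostly of fast fibres, which contract quickly on glycolysis and carry parvalbumins that bind calcium, and of a thin superficial layer of slow fibres, which are rich in mitochondria and myoglobin. A dissected piece also holds red blood cells, vessels, connective tissue, fat, immune cells and, at its surface, skin. Muscle mRNA also follows the time of day, feeding, glucocorticoid hormones and contraction, through genes such as the period and Rev-erb clock repressors, the pyruvate dehydrogenase kinases and the ubiquitin ligases of muscle wasting. In a bulk sample, a difference in how many cells of a type were taken and a difference in RNA per cell cannot be told apart.

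Lasy-Seq, the assay used, counts polyadenylated transcripts from their 3′ ends, and its samples are pooled once each has been reverse transcribed with its own index. Library totals ran from 1664493 to 7264469 counts with a median of 3089950, and levels are given as CPM, the count of a gene scaled to a fixed library total, on library sizes scaled by edgeR's TMM method, whose factors ran from 0.800 to 1.25. Of 31658 genes in the table, 7181 (22.7%) averaged 10 CPM or more in these 14 libraries and are called measured genes. Genes listed as fast-fibre genes summed to between 141820 and 332582 CPM, which matches the tissue label. Replicate 6 stood apart: 33 liver genes took 6.58% of the counts in the wild-type library and 3.41% in the knockout library, against 0.587% to 0.902% in the 14 libraries used. gys1, the muscle form of glycogen synthase, lay between 123 and 231 CPM (median 173), with a residual SD of 0.26 on the log2 scale. gys2 was at 0 to 3.22 CPM (0 to 14 counts) and so fell below the level needed to be measured in muscle. The most similar of 91 pairs of libraries was WT 4 and WT 5, which differed by an SD of 0.219 log2 units beyond counting error over 1493 genes of at least 50 CPM, against a median of 0.441 over all pairs.

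The typical muscle gene differed between fish by more than counting error would give, but by far less than the most variable genes. The residual SD, the SD of log2(CPM + 0.5) after the mean of each genotype was removed, had a median of 0.40 over the 7181 measured genes, and 9 in 10 genes lay between 0.23 and 0.70. Counting error alone would give a median of 0.17, and 5249 genes (73.1%) had an SD of more than 2 times their own counting SD. An SD above 1 was found in 59 genes (0.822%), and an SD above 2 in 2 genes. Among the 198 genes with a mean of at least 500 CPM the median was 0.35. The order of genes by SD was only partly shared by the genotypes: across genes, which are not independent replicates, Spearman's rho between the SD in wild-type and in knockout fish was 0.331, and 36 of the 100 most variable genes of each genotype were the same.

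**Figure D1:**
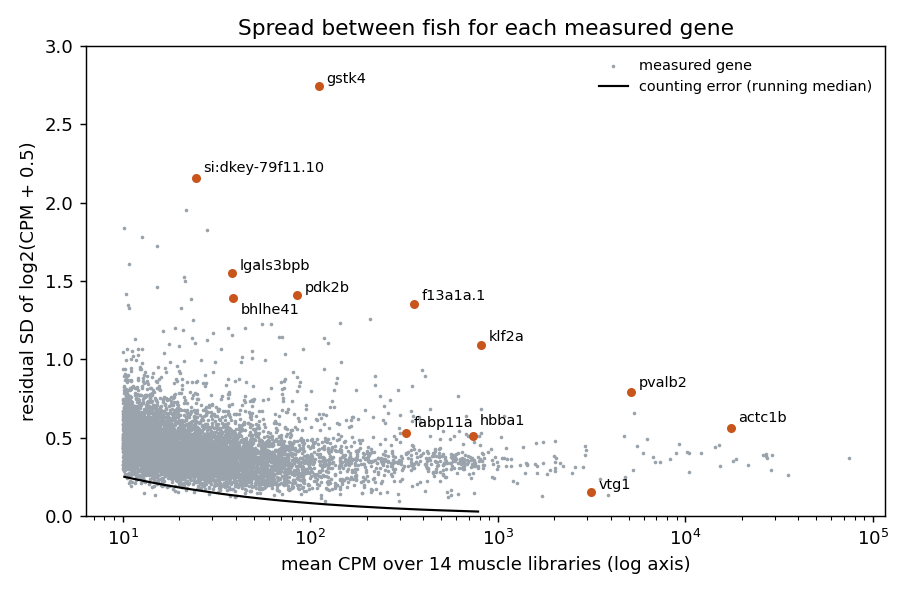
Residual SD of log2(CPM + 0.5) between fish within genotype (vertical axis) against mean CPM over the 14 muscle libraries (horizontal log axis), 1 grey point for each of 7181 measured genes, with the SD expected from counting alone as a black line and genes of the text in orange. Most genes lie near 0.40, gstk4 stands highest at 2.74, and the abundant egg-yolk gene vtg1 lies low.

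The most variable gene of all was gstk4, which encodes a glutathione S-transferase of the kappa class. It ran from 2.87 CPM in WT 1 through a median of 7.72 CPM to 597 CPM in KO 1, with 8 to 2111 counts behind these values. The fish fell into separate sets: WT 4 (398 CPM), WT 5 (485 CPM) and KO 1 were high, WT 3 was at 22.8 CPM, and the other 10 fish were at or below 10.3 CPM. Its residual SD was 2.74, and 2.24 without KO 1.

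The same 3 fish stood apart in other genes. abi3bpb, the gene of an extracellular-matrix protein, was at 136 CPM in KO 1, 85.0 in WT 4 and 80.7 in WT 5, against 6.33 to 30.1 CPM in the other 11. f13a1a.1, a gene for the A chain of coagulation factor XIII, which cross-links fibrin, went the other way: it was at 49.4 CPM in WT 4, 51.3 in WT 5 and 73.3 in KO 1, and at 204 to 696 CPM in the other 11. sele, the gene for E-selectin, an adhesion molecule of vessel walls, was at 5.74, 8.51 and 5.52 CPM in WT 4, WT 5 and KO 1. In the other 11 fish it lay between 11.2 and 17.5 CPM, so the sets did not overlap for any of these genes. The genes were picked for comparison with gstk4 after the values were seen, so the lack of overlap is a description only. How many of all measured genes separate these 3 fish was not counted.

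By Pearson's r of centred values over the 14 fish, used here as a measure of likeness and given with no test, 6 measured genes had an r above 0.8 with gstk4 and 8 had one below -0.8. The nearest was nln, the gene for the peptidase neurolysin, and the next tecra, which encodes an enzyme of very-long-chain fatty acid synthesis. Since the likeness rests on 3 high fish, these values describe which genes share the contrast of those fish with the rest, not a graded relation. WT 4 and WT 5 were also the most similar pair of libraries by the SD beyond counting error over the 1493 genes of at least 50 CPM. That SD was 0.219 for them and 0.235 for the next pair, WT 2 and WT 3. KO 1 was not close to either: the SD was 0.584 with WT 4 and 0.536 with WT 5, above the median of 0.441. KO 1 differs from both in genotype, and the pair values were not centred, so they include any difference between genotypes.

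**Figure D2:**
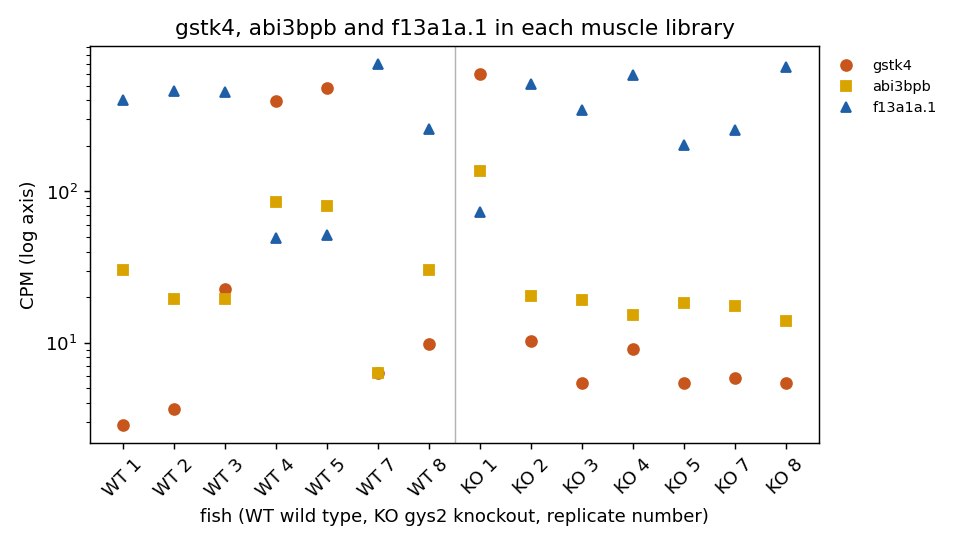
Level of gstk4 (circles), abi3bpb (squares) and f13a1a.1 (triangles) in CPM on a log axis in each of the 14 muscle libraries, with wild-type fish left and knockout fish right of the grey line. WT 4, WT 5 and KO 1 have high gstk4 and abi3bpb and low f13a1a.1; gstk4 is 398, 485 and 597 CPM there.

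A second set of highly variable genes was highest in KO 5. lgals3bpb, which encodes a galectin-3-binding glycoprotein, ran from 7.55 CPM (KO 7) through a median of 11.9 to 311 CPM in KO 5, with 58.6 CPM in WT 5 and 50.6 in WT 4. Its SD was 1.55, and 0.86 without KO 5. The uncharacterised gene si:dkey-79f11.10 had the second largest SD of all (2.16), from 0.42 CPM in KO 7 to 233 CPM in KO 5. gbp1, an interferon-induced GTPase gene, was at 71.6 CPM in KO 5 and at 0 in KO 8, with a median of 8.55. For each of these genes KO 5 was the highest fish and WT 5 and WT 4 were among the next.

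Of the 300 genes whose SD was largest against their counting error, clustering at a correlation of 0.7 put 9 into a group that included lgals3bpb and si:dkey-79f11.10. Of these 9, 3 were on the macrophage and antigen-presenting list and 0 on the interferon list. The group held cd74a and cd74b, the invariant chains of MHC class II, and mhc2dab, a class II chain. cd74a was at 113 (WT 2), 185 (median) and 763 CPM (KO 5). The mean of the group stood 2.60 log2 units above the knockout mean in KO 5 and 0.86 below it in KO 7. The median correlation between its members was 0.76, and 0.50 without KO 5. A further 3 members carry the name of 1 clone (CR318588) and may share reads with each other. The macrophage and antigen-presenting list as a whole varied widely: the median SD of its 21 measured genes was 0.68 against 0.40 for all measured genes, and 16 of the 21 lay in the most variable 10% (718 genes). Its summed level was 3108 CPM in KO 5 and 740 to 1426 CPM in the other 13 fish.

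Among other immune genes, lyz and grn1 were highest in fish other than KO 5. lyz, the lysozyme gene of neutrophils, was at 91.1 CPM in WT 8 and at 3.04 to 31.9 CPM elsewhere. grn1, a granulin gene of macrophages, was highest in WT 2 at 114 CPM and lowest in KO 1 at 11.0, with a median of 30.7. The mean centred value of the 12 measured interferon-list genes was highest in KO 5, at 1.13 log2 units above the genotype mean. txn, which encodes the redox protein thioredoxin, was also highest in KO 5, at 110 CPM against 7.19 to 48.1 CPM in the other 13. None of the 15 lymphocyte-list genes in the table was measured, and that list summed to 5.17 to 30.5 CPM.

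Among the 20 genes of largest SD were pdk2b and fbxo32. pdk2b encodes a pyruvate dehydrogenase kinase, which turns muscle from glucose to fat as fuel. It lay at 252 CPM in WT 1, 230 in KO 1, 174 in KO 5 and 171 in KO 7, and at 12.4 to 73.0 CPM in the other 10 fish, with a gap between the sets and a median of 38.3. fbxo32, the gene for atrogin-1, a ubiquitin ligase of muscle wasting, ran from 2.67 CPM in KO 2 through 15.01 to 91.4 CPM in KO 7. trim63a, the gene for the ligase MuRF1, ranked 41st by SD and was also lowest in KO 2 (28.2 CPM) and highest in KO 7 (405 CPM), with a median of 86.1. KO 7 and KO 8 also shared high klf11b, a Krüppel-like transcription factor gene, at 80.5 and 48.5 CPM against at most 14.4 CPM in the other 12. Of 26 measured genes on the muscle-wasting and autophagy list, 7 lay in the most variable 10%.

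Several genes of large SD owed it to 1 fish at or near 0. gc2, a guanylyl cyclase gene, had no count in KO 8 and 6.09 to 19.9 CPM in the other 13, and its SD fell from 1.35 to 0.29 without KO 8. BX294189.1 had no count in WT 4, and its SD was 1.33 with and 0.54 without that fish. WT 4 had the smallest library total. Clone-named genes such as BX294189.1 have no annotation in the sources used here, and overlapping models may divide their reads.

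Among genes of at least 500 CPM the largest SD, 1.09, was that of klf2a, a flow-responsive transcription factor gene of vessels, at 132 CPM (WT 2), 835 (median) and 1487 CPM (WT 1). Next came pvalb2, a parvalbumin gene, at 1367 CPM in WT 7, a median of 4705 and 15256 in KO 7. pvalb1 was also highest in KO 7 at 12002 CPM and was lowest in KO 1 at 1979 CPM. pvalb7 was highest in WT 7 at 1500 CPM, the fish lowest in pvalb2, so not all parvalbumin genes rose and fell together. pvalb3 and pvalb4, with means of 27119.4 and 27117.5 CPM, both fell in the largest co-varying group described below, whose mean was highest in KO 7. Parvalbumin genes resemble each other, and 3′ reads may be divided among them. actc1b, a cardiac-type actin gene also used in skeletal muscle, ran from 8471 to 40047 CPM and was highest in KO 7.

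The steadiest abundant genes were AL935186.10 (462 to 619 CPM, SD 0.13), CT027638.1 (SD 0.13), CR383676.2, the yolk-protein gene vtg5 (456 to 680 CPM, SD 0.14) and mogs, an enzyme gene of glycoprotein trimming. vtg5 is a liver product, and its SD was 0.99 with the replicate 6 libraries included. The 28 measured liver-list genes had a median SD of 0.24, lower than any other list with 5 or more measured genes, and stood at 1.01% to 10.3% (median 1.80%) of their level in the liver libraries. Whether their reads came from muscle tissue, from blood or liver traces, or from the pooled library step was not tested.

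Co-variation was described first by clustering, which gave 10 groups of at least 5 genes from the 300 genes chosen as above. Choice by SD against counting error favours abundant genes. Many members therefore had an SD below the median of 0.40 of all measured genes, such as rpl8 (0.35) and cox6b2 (0.30). The groups were formed from the values, so their correlations are a description. The largest held 97 genes and was led by ribosomal protein genes such as rps6 and rpl8. It also held fast-fibre genes, among them tnnt3b, tnnc2, ckma, mylz3, pvalb3 and pvalb4. Its mean was highest in KO 7 (0.57 log2 units above the genotype mean) and lowest in KO 4 (0.47 below). Under library totals in place of TMM these means shrank to 0.20 above in KO 7 and 0.21 below in KO 4, and WT 4 was lowest (0.23 below). The next held 58 genes, among them cox6b2, cox4i1 and atp5f1b, which encode parts of the respiratory chain and ATP synthase, and was highest in KO 1 and lowest in KO 5. cox4i1 ran from 626 CPM in KO 5 through 998 to 1381 CPM in KO 1. The median correlation between members was 0.86 and 0.83 in these groups under TMM scaling, and fell to 0.57 and 0.56 under library totals.

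**Figure D3:**
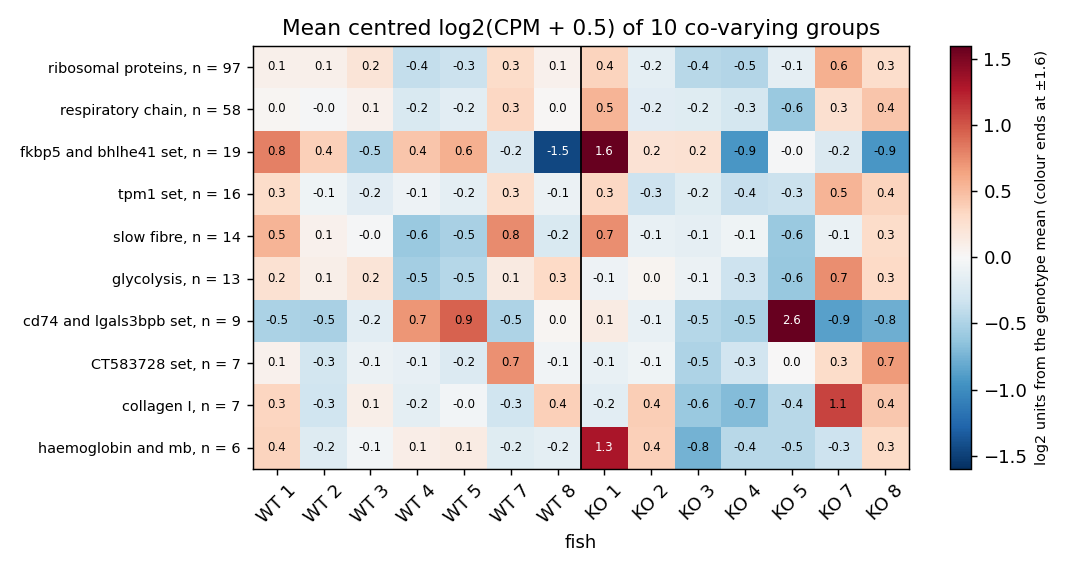
Mean centred log2(CPM + 0.5) of the genes in each of 10 co-varying groups (rows, with the number of genes) in each of the 14 muscle libraries (columns, wild type left and knockout right of the black line); red is above and blue below the mean of the fish's genotype. KO 5 stands out in the cd74a group (2.60), KO 1 and WT 8 at opposite ends of the fkbp5 group, and KO 7 in the collagen group (1.08). The row named for ribosomal proteins also holds fast-fibre genes.

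A group of 19 genes was led by bhlhe41 and fkbp5. Of its members 2 were on the clock list and 2 on the glucocorticoid list, and neither list varied together as a whole: the median pairwise correlation was -0.0029 over 21 clock genes and 0.010 over 16 glucocorticoid genes. The group held bhlhe41 and nr1d2a, repressors of the clock, fkbp5, a glucocorticoid-induced regulator of the glucocorticoid receptor, hsd11b2, which inactivates cortisol, and the small heat-shock genes hspb6 and hspb9. bhlhe41 lay between 3.97 CPM (WT 8) and 213 CPM (KO 1), with a median of 29.5. fkbp5 lay between 36.7 CPM (WT 8) and 355 CPM (KO 1), with a median of 112. KO 1 was the highest and WT 8 the lowest fish for both, and the group's mean was 1.64 above the genotype mean in KO 1, 0.81 above it in WT 1, 1.46 below it in WT 8 and 0.93 below it in KO 4 and in KO 8.

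The median correlation between its members was 0.82 under TMM, 0.83 under library totals and 0.74 without KO 1. Immediate-early genes, which nerve and muscle activity induce within minutes, did not all follow this axis. Of that list, nr4a1 and btg2 were themselves members of the group. nr4a3 was highest in KO 1 (76.0 CPM) and lowest in WT 8 (1.87 CPM), like the group, while egr1 was lowest in KO 1 (7.66 CPM) and stood at 84.3 CPM in WT 8 and 86.6 CPM in WT 7. Of the 25 measured genes of the immediate-early list, 11 lay in the most variable 10%.

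Slow-fibre genes led a group of 14. It held myl13, myl10, tnnc1b, tnni1c, tpm2 and tpm3, which build slow-fibre filaments, atp2a2a, the slow-fibre calcium pump, and fabp11a, a fatty-acid-binding protein gene. Its mean was 0.76 above the genotype mean in WT 7 and 0.74 above it in KO 1, and 0.60 below it in KO 5, level with WT 4 (also 0.60 below). Under library totals KO 7 (0.48 below) and WT 4 (0.45 below) were lower than KO 5 (0.36 below). tnnc1b, the slow troponin C gene, ran from 326 CPM in WT 4 through 520 to 1106 CPM in KO 1. The slow myosin genes did not share one pattern: smyhc3 was highest in WT 7 (686 CPM) and lowest in WT 4 (154 CPM), whereas smyhc2 was lowest in WT 7 (280 CPM) and highest in KO 1 (1386 CPM). The median SD was 0.49 for the 29 measured slow-fibre genes and 0.46 for the 41 fast-fibre genes.

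A glycolysis group of 13 genes was highest in KO 7 (0.74 above the genotype mean) and lowest in KO 5 (0.60 below). Under library totals these means were 0.37 above and 0.37 below, and WT 4 (0.39 below) was lower than KO 5. Under TMM its mean correlated at 0.776 with that of the largest group, 0.744 with the collagen group and 0.675 with the respiratory-chain group. The values were 0.486 with the slow-fibre group, 0.045 with the haemoglobin and myoglobin group, -0.293 with the fkbp5 group and -0.743 with the cd74a group. The glycolysis group held aldoaa, pgam2, eno3, tpi1b, gapdh, pgk1 and ldha, which encode enzymes of glycolysis, and gamt, an enzyme gene of creatine synthesis. aldoaa, the muscle aldolase gene, lay between 3423 CPM (KO 5) and 10500.5 CPM (KO 7), with a median of 6505. KO 5 was the lowest fish in the respiratory-chain group and the highest in the cd74a group under both scalings, and the lowest in the glycolysis and slow-fibre groups under TMM only.

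Red-cell and myoglobin genes formed a small group that 1 fish carried. It joined hbba1, hbaa1 and si:ch211-5k11.8, haemoglobin genes that lie side by side in the RefSeq annotation, with mb (myoglobin), smyhc2 and the mitochondrial gene mt-nd3. hbba1 ran from 438 CPM (KO 3) through 602 to 1637 CPM (KO 1), and mb from 171 CPM (KO 5) through 252 to 1392 CPM (KO 1). The median correlation between members was 0.92 among knockout fish and 0.04 among wild-type fish, and over all 14 it fell from 0.75 to 0.54 without KO 1. Reads of the neighbouring haemoglobin genes may be divided among them.

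The remaining groups held 16 genes led by tpm1, a tropomyosin gene, with the highest mean in KO 7 (0.55 above the genotype mean under TMM), and 7 genes led by genes of the clone CT583728, with the highest mean in WT 7 (0.73 above). Under library totals the tpm1 group was highest in WT 1 (0.19 above), with KO 7 at 0.17 above, and the median correlation between its members fell from 0.84 to 0.54. A group of 7 led by collagen I genes was highest in KO 7 (1.08 above the genotype mean, and 0.70 under library totals) and is taken up below.

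Skin genes did not form a group. krt5, a keratin gene of basal skin cells, was at 85.5 CPM in KO 1 and 77.6 CPM in KO 7 and at 4.66 to 18.2 CPM in the other 12, whereas krt4, a keratin gene of surface skin cells, was highest in WT 7 (185 CPM) and KO 8 (177 CPM), lowest in KO 5 (34.2 CPM) and had a median of 63.7. The median correlation over all pairs of the 18 measured skin genes was 0.096. The egg-envelope and oocyte list did vary together: its 13 measured genes had a median SD of 0.64 and a median pairwise correlation of 0.71, against -0.0011 over all pairs of measured genes. zp3, an egg-envelope gene, was highest in WT 7 (111 CPM), KO 8 (103 CPM) and WT 2 (92.9 CPM) and lay at 23.4 to 43.0 CPM in the other 11. Whether these fish had more ovary RNA in the sample was not tested. Summed ovary-list levels ran from 1274 to 2181 CPM. Most of this sum came from h1m, with a mean of 1203 CPM. It was the steadiest measured gene of the list (SD 0.23) and fell in the tpm1 group, so the sum says little about genes such as zp3.

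Each of 8 genes that mark a tissue, cell type or response was then used in turn as a predictor of every other measured gene, with genotype as a further term, so that a slope tells by how many log2 units a gene changes per log2 unit of the marker among fish of 1 genotype. Genes were called at an adjusted p under 0.05 by edgeR's quasi-likelihood test with Benjamini-Hochberg adjustment over all genes tested. The library total, tested in the same way as a ninth predictor, called 0 of 7181 genes (0%), with 185 at an unadjusted p under 0.05 and 0 calls by DESeq2.

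With smyhc1, a slow myosin heavy chain gene, 0 of 7180 genes (0%) were called, while 1681 had an unadjusted p under 0.05 and DESeq2 called 146. smyhc1 itself was low, at 12.5 (KO 3), 17.2 (median) and 25.9 CPM (WT 7), from 32 to 94 counts. With fosab, an immediate-early gene at 3.59 (KO 8), 11.8 and 51.6 CPM (WT 8), 0 genes (0%) were called by edgeR, 165 had an unadjusted p under 0.05 and DESeq2 called 0. With hsp90aa1.2, a cytosolic heat-shock gene at 6.16 (WT 3) to 14.9 CPM (WT 4), 0 genes (0%) were called by edgeR. An unadjusted p under 0.05 was found for 150, and DESeq2 called 0. Only 20 to 60 counts lay behind hsp90aa1.2, and its SD was 0.35 against a counting SD of 0.25. Counts this low limit what a missing call can show.

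With hbba1, the marker of blood, 2 of 7180 genes (0.0279%) were called. si:ch211-5k11.8, its haemoglobin neighbour, had a slope of 1.23 (edgeR adjusted p = 2.97e-04) and mb a slope of 1.35 (edgeR adjusted p = 0.0319). Both lost their call without KO 1, the highest fish for all 3, where the slope of mb was 0.72, and mb also lost it without WT 1, WT 3, KO 2, KO 3, KO 4 or KO 5. Without KO 7, KO 8 and WT 7 in turn, 170, 9 and 4 genes were called. mb had a correlation of opposite sign with hbba1 in the wild-type fish (-0.24) and in the knockout fish (0.91). The erythrocyte list of 9 measured genes summed to 765 to 2481 CPM, with the highest sum in KO 1.

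With krt4, the marker of skin, 13 genes (0.181%) were called, 12 with positive and 1 with negative slope. krt94, another keratin gene, had a slope of 1.08 (edgeR adjusted p = 3.11e-06) and lay between 29.5 CPM (KO 5) and 215 CPM (KO 8), with a median of 55.3. aldh9a1a.1, an aldehyde dehydrogenase gene, had a slope of 0.73, and lpl, the lipoprotein lipase gene, a slope of 0.69. krt94 was the only called gene among the 17 other skin-list genes measured. Its correlation with krt4 was 0.92 in wild-type and 0.95 in knockout fish. Under library totals 2 genes were called. Without KO 8, WT 7 and WT 5 in turn 1, 4 and 5 genes were called, and without KO 3 and KO 1 in turn 34 and 27.

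With col1a1a, the marker of connective tissue, 7 genes (0.0975%) were called, all with positive slope. col1a2, which encodes the other chain of collagen I, had a slope of 1.21 (edgeR adjusted p = 1.90e-05), and col1a1b a slope of 1.02. sparc, the gene of a collagen-binding matrix protein, and col5a2a, a collagen V gene, followed, as did 3 genes made by muscle fibres, the fast myosin gene myhc4 (slope 0.68), pvalb2 (slope 0.98) and hhatla. col1a1a ran from 212 CPM (KO 3) through 326 to 839 CPM (KO 7), and myhc4 from 8916 CPM (KO 4) through 14327 to 26676 CPM (KO 7). KO 7 was the highest fish for col1a1a, col1a1b, col1a2, sparc, myhc4, pvalb2 and hhatla. Of 26 other connective-tissue genes measured, 4 were called. Leaving out 1 fish left 2 calls for WT 2, KO 3, KO 4 and KO 7, 3 for WT 4 and WT 8 and 4 for WT 1, WT 5 and KO 5. col1a2 remained called in each of these, whereas myhc4 and pvalb2 did not. Under library totals 2 genes were called, col1a2 among them.

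The 2 remaining markers were followed by far more genes. With per3, a period gene of the clock, 1730 genes (24.1%) were called, 938 with positive and 792 with negative slope. per3 itself ran from 23.2 CPM (WT 7) through 53.4 to 88.1 CPM (KO 4), with KO 8 (30.1 CPM) next to the low end. zgc:158258, at 15.8 CPM in WT 7 and 64.5 CPM in KO 4, had a slope of 1.13, and fgl1, a fibrinogen-like gene, a slope of -1.41 (-0.78 under library totals), each with an edgeR adjusted p of 0.00329. On the list of clock genes, 3 of 20 had a positive and 3 a negative slope past the threshold. Of 49 genes of oxidative phosphorylation and the citrate cycle, 29 were called, all with negative slope, as were 13 of 29 slow-fibre genes, where 1 more was called with positive slope.

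With fabp11a, a gene of fat cells and of the slow-fibre group above, 643 genes (8.96%) were called, 387 with positive and 256 with negative slope. fabp11a lay at 138 (KO 5), 306 (median) and 561 CPM (WT 7). rbp7b, a retinol-binding protein gene, had a slope of 1.24 (edgeR adjusted p = 0.0035) and lay between 8.85 CPM (KO 5) and 66.5 CPM (KO 8). Of the oxidative phosphorylation list, 34 of 49 had a positive and 1 a negative slope past the threshold, as had 12 of 29 slow-fibre genes and 11 of 28 fat-oxidation genes, all of these with positive slope. On the side of negative slopes stood stat1b, the gene of an interferon-signalling factor, with a slope of -1.06 (edgeR adjusted p = 0.00461), lgals3bpb with -2.95 (-1.71 without KO 5, still past the threshold), and 7 of 21 macrophage-list genes.

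These larger counts moved with the scaling of the libraries. Under library totals in place of TMM the median slope of all tested genes shifted from -0.07 to 0.23 for per3 and from 0.05 to -0.18 for fabp11a. For per3, 2581 genes were then called, of which 97.02% were positive against 54.2% before, with 1 positive and 2 negative calls among the 49 oxidative phosphorylation genes. The slow-fibre calls for per3 turned from 1 positive and 13 negative to 3 positive and 1 negative, and those on the clock list from 3 positive and 3 negative to 7 positive and 0 negative. fabp11a had 21 calls, 33.3% of them positive against 60.2% before. Of these, 0 were on the oxidative phosphorylation, slow-fibre or fat-oxidation lists and 2, both negative, on the macrophage list. With the TMM factor as a further term, chosen after the data were seen, per3 had 0 calls by edgeR and fabp11a 13, so per3 and the scaling of the libraries cannot be told apart here. Without WT 7, the lowest fish in per3 and the highest in fabp11a, 509 and 143 genes were called, and without KO 8, 533 and 168. For fabp11a the count was 294 without WT 5, 364 without WT 4 and 412 without KO 1.

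The sign of the correlation with a marker was then compared between the genotypes, as a description. Of the 100 genes most correlated with per3 in wild-type fish, 93 had the same sign in knockout fish, and 93 of the 100 chosen in knockout fish had it in wild-type fish, against 75.6% of all genes. For fabp11a the counts were 89 and 87, against 73.4%. For fosab they were 19 and 39, against 34.2%. For hbba1 they were 83 and 76 (70.7%), for krt4 84 and 81 (69.9%) and for smyhc1 77 and 77 (70.7%). For col1a1a they were 56 and 59 (46.8%), for hsp90aa1.2 44 and 50 (48.4%) and for the library total 42 and 40 (47.8%). The counts were taken under TMM only. Since per3 and the scaling of the libraries cannot be told apart, they are no independent support for a relation with per3.

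Relations between the markers were tested on the centred values with 100000 permutations within genotype, two-sided, and Benjamini-Hochberg adjustment over all 36 pairs of the 8 markers and the library total. krt4 and fabp11a rose together over the 14 fish (Pearson's r = 0.79, permutation p = 8.70e-04, adjusted p = 0.0313; Spearman's rho = 0.79, permutation p = 0.00138, adjusted p = 0.0497). Without the 2 fish farthest from the median of krt4, r was 0.64. per3 and fabp11a were inversely related (r = -0.72, permutation adjusted p = 0.0484), but rho (-0.67) had an adjusted permutation p of 0.129 and r without the 2 farthest fish was -0.46. smyhc1 and per3 had an r of -0.77 with an adjusted permutation p of 0.0559. Under library totals no pair passed.

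The first principal component of the centred values held 30.3% of the variance, and the next 2 held 10.7% and 8.72%. KO 8 (38.0), WT 7 (37.7), KO 7 (17.8) and KO 1 (12.2) had the highest scores on the first, and WT 4 (-21.5), WT 5 (-21.1), KO 4 (-21.1), KO 2 (-17.9), KO 5 (-17.4) and KO 3 (-11.4) the lowest. Of the 49 oxidative phosphorylation genes, 44 correlated with this score above 0.5, as did 1835 of all 7181 measured genes, while 1930 correlated with it below -0.5. Clone-named genes made up 11.2% of the genes at the high end, 33.99% of those at the low end and 18.8% of all measured genes.

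This axis moved with the make-up of the libraries. The 4 fish with the highest scores had TMM factors of 0.800 to 0.912, and the 6 with the lowest had 1.06 to 1.25, without overlap. The 10 most counted genes took 29.5% to 35.6% of counts in the former and 27.4% to 31.96% in the latter. Under library totals, with scores that correlated at 0.98 with those above, 8 of the 49 oxidative phosphorylation genes and 247 of all genes correlated with the score above 0.5, and 3282 below -0.5. Which of the genes rose with the score therefore depended on the scaling, and the part that library make-up has in it was not tested.

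**Figure D4:**
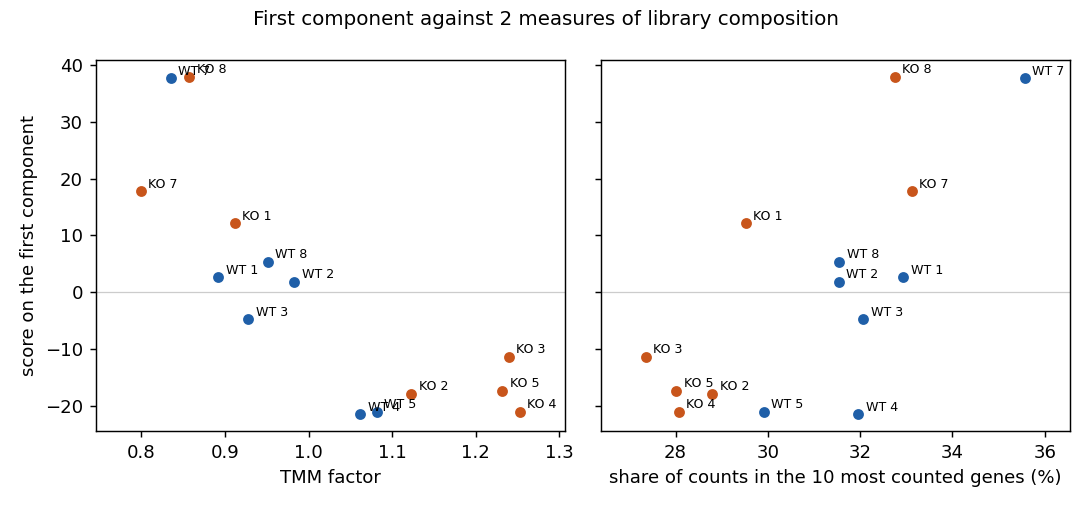
Score of each of the 14 muscle libraries on the first principal component (vertical axis, no unit) against its TMM scaling factor (left) and the percent of its counts in its 10 most counted genes (right); blue points are wild-type and orange points knockout fish. WT 7 and KO 8 score highest, and the 6 fish with negative scores below -11 have TMM factors of 1.06 or more.

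The next components each described 1 fish. KO 1 had a score of 35.9 on the second, whose leading genes included bhlhe41, slc25a33, a mitochondrial nucleotide carrier gene, and arg2, an arginase gene; arg2 lay between 13.5 CPM (WT 8) and 219 CPM (KO 1), with a median of 50.5. WT 4, the shallowest library, had a score of 30.4 on the third. Loadings of the first component found in each genotype alone correlated at 0.58 across genes, and those of the second at 0.046.

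Genes of large SD in muscle and the marker genes were finally looked up in the liver libraries of the same genotype and replicate number. The comparison was chosen after the data were seen. The labels do not say that equal numbers mark the same fish. Over 5065 genes measured in both tissues, the deviations of muscle and liver libraries with the same number correlated at -0.34 to 0.32 (median -0.04), and 1 of 14 muscle libraries correlated best with its own number. Of the genes of large SD and the marker genes, 38 had a mean of at least 1 CPM in liver, and 3 of these were followed up. Not all of the 38 were highly variable in muscle. The markers smyhc1 (SD 0.32) and hsp90aa1.2 (SD 0.35) lay below the median SD of 0.40 of all measured genes.

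BX530068.1 was at 20.1 to 51.5 CPM in the muscle of WT 1, KO 1, KO 2 and KO 4 and at 1.23 to 5.37 CPM in the other 10. The livers with those 4 numbers held 37.4 to 166 CPM and the other 10 held 0.658 to 7.86 CPM. si:dkey-263j23.1 was high in the muscle of WT 1, WT 2, WT 8, KO 3 and KO 4 (38.8 to 69.9 against 4.02 to 9.64 CPM), and the same 5 numbers were highest in liver (19.8 to 49.9 against 3.40 to 11.6 CPM). For both genes the same fish numbers stood above the rest in both tissues, with no overlap. Over all 5065 genes, the r of centred muscle and liver values had a median of -0.08. It was above 0.8 in 2 genes, these ones, and below -0.8 in 6. How many genes separate the numbers without overlap was not counted.

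zgc:194246 was low in the muscle of WT 3, WT 7, KO 3, KO 7 and KO 8 (0.839 to 5.81 CPM) and lay at 17.2 to 41.4 CPM in the other 9. Of those 9 numbers 8 were also among the 9 highest in liver, where the ranges overlapped (2.55 to 9.63 and 0.680 to 2.93 CPM). gstk4, in contrast, was at most 5.58 CPM in any liver. Pearson's r of the centred values was tested for the 38 genes by permutation within genotype, with Benjamini-Hochberg adjustment. It was 0.93 for BX530068.1 (adjusted permutation p = 0.0095) and 0.92 for si:dkey-263j23.1 (adjusted permutation p = 0.00608). For zgc:194246 it was 0.69 and did not pass (adjusted permutation p = 0.149). The 3 genes were picked out of many for their agreement, and the comparison was chosen after the data were seen, so it stays a description.

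**Figure D5:**
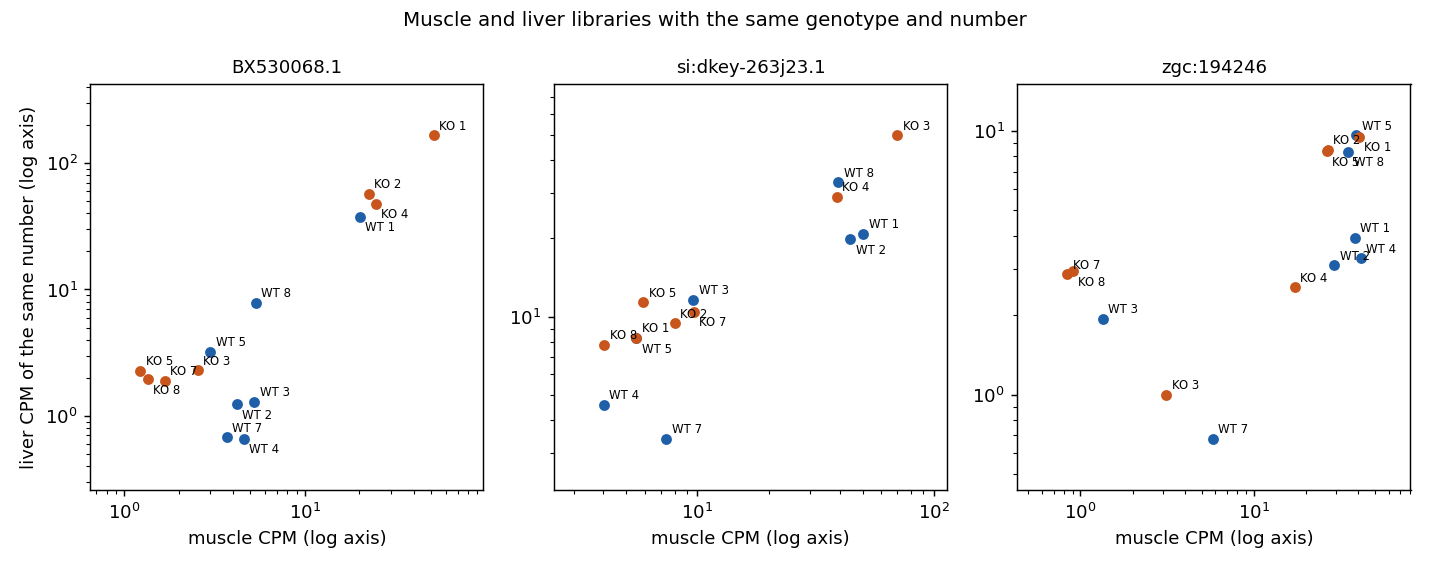
Level in muscle (horizontal) and in the liver library of the same genotype and number (vertical), in CPM on log axes, for BX530068.1, si:dkey-263j23.1 and zgc:194246; blue points are wild-type and orange points knockout fish, 14 in each panel. In the first and second panel the numbers high in muscle, 4 and 5 of them, are those high in liver; the labels do not say that equal numbers mark the same fish.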

How the data were processed

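The file holds whole-number counts per gene symbol and library, as deposited by the authors, for which the submitters' processing notes name GRCz11 and the tools Salmon (1.10.2), BWA (0.7.17-r1188) and fastp (0.23.4). No label says how strand, molecular identifiers and near-identical genes were treated. PCR copies are not independent molecules, so counting errors cover counting only. Library totals ranged from 1664493 to 7264469.

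Counts were scaled by TMM and turned into CPM with edgeR 4.0.16 in R 4.3.3. Genes that averaged 10 CPM or more were kept, and log2(CPM + 0.5) was centred on each genotype, which leaves 12 residual degrees of freedom. The residual SD, its counting part by the delta method, principal components and average-linkage groups (correlation of 0.7, 300 genes, at least 5 members) were computed without a test. Slopes on each marker gene were fitted with edgeR's quasi-likelihood test with genotype as a term, with adjustment over all genes tested, and checked on simulated data. DESeq2 1.42.0, library totals, other filters and pseudocounts, all 16 libraries and each library left out were tried as alternatives. Replicates are separate fish per the labels.

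The libraries, the gene lists, the markers and the rule for named genes were chosen with earlier results of these data known, so no pattern here is independent support for an earlier one. Genes were named if they were a marker, gys1 or gys2, among the 20 largest residual SDs, the 10 largest or 5 smallest among genes of at least 500 CPM, the 6 leading calls in each direction of a marker, the 4 most variable members of a list, the 6 leading genes of a component end or the 8 leading members of a group. Genes compared with gstk4, and the liver look-up, were added after the values were seen. Gene names were taken as the file gives them, and the RefSeq table of another assembly (GRCz12tu) was used for neighbouring genes only.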

Additional observations from a re-analysis of the deposited data

Results flagged for a closer look

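In 112 sets of 7 fish of 1 genotype, the gap between the outermost fish and its nearest neighbour was divided by the range of the set, on the log2(CPM + 0.5) scale. The ratio passed Dixon's critical value of 0.568 in 17 sets, and chance gives about 1 set in 20. Most sets were genes named for a large SD or means of groups formed from the same values, which 1 outlying fish can bring about, and sets share fish and correlated genes. The 17 therefore cannot be read against that rate.

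KO 5 stood apart above the other knockout fish for lgals3bpb (ratio 0.836), CABZ01000634.1 (0.676), si:dkey-79f11.10 (0.598) and the mean of the cd74a group (0.712), and below them for vtg5, a yolk-protein gene (0.568). CABZ01000634.1 was at 155 CPM in KO 5, at 30.5 in WT 4 and 33.3 in WT 5, and at 2.64 to 11.8 CPM in the other 11 fish. KO 1 stood apart above for gstk4 (0.869) and smyhc2 (0.598).

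WT 8 stood apart above for fosab (0.671) and below for bhlhe41 (0.605). WT 7 stood apart below for per3 (0.773) and above for pvalb7 (0.607) and for the mean of the group led by CT583728 genes (0.646). WT 1 stood apart above for BX530068.1 (0.707) and WT 4 below for BX294189.1 (0.679), where it had no count. Among knockout fish KO 8 stood apart below for gc2 (0.847), where it had no count, and for fosab (0.611), and KO 2 below for pvalb7 (0.662).

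The replicate 6 libraries, which the comparisons leave out, held 6.58% (wild type) and 3.41% (knockout) of their counts in liver-list genes, against at most 0.902% in any of the 14 libraries used. What put these reads there was not tested.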

How the results depend on the processing

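Slopes were followed for up to 6 leading calls in each direction of a marker, and none of these changed sign under any alternative. Calls on whole lists did shift in direction under library totals, as given above for per3. Of the values of single named genes and relations, 85 lost their call and 16, all residual SDs, moved by more than their standard error under the alternatives other than leaving out a fish, while 287 did neither; leaving out a fish, 51 lost it, 14 moved and 1081 did neither. Genes called per marker, in the order library totals, DESeq2, mean of at least 50 CPM and mean of at least 1 CPM, moved as follows where they left the 1.5-fold range of the value reported: skin 2, 45 and 3; connective tissue 2 and 31 under the first pair; blood 61 with DESeq2 and 9 at 50 CPM; per3 736 at 50 CPM; fabp11a 21, 1074 and 377 (totals, DESeq2, 1 CPM); smyhc1 146 with DESeq2. With all 16 libraries, liver-rich replicate 6 included, blood had 572 calls. With the TMM factor as a further term (added after seeing the data) skin had 6, connective tissue 2, per3 0, fabp11a 13 and hsp90aa1.2 2 calls by edgeR; with adjustment over all 9 fits together (also added) the counts were 30 for smyhc1, 37 for blood, 28 for skin, 13 for connective tissue, 1 for hsp90aa1.2, 324 for per3 and 163 for fabp11a. The cause of these moves was not tested, apart from the smaller number of genes tested at 50 CPM. There were 1493 genes with a mean of at least 50 CPM, against 7181 at 10 CPM. The 736 calls for per3 at 50 CPM were therefore a larger share of the genes tested than the 24.1% at 10 CPM.

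Leaving out 1 fish at a time gave 0 to 170 calls for blood (without KO 1 and without KO 7), 1 to 34 for skin (without KO 8 and without KO 3), 2 to 10 for connective tissue, 509 to 1798 for per3 and 143 to 741 for fabp11a (lowest without WT 7 in both), 0 to 6 for smyhc1 and 0 for fosab, hsp90aa1.2 and depth. The median residual SD was 0.45 under library totals, 0.38 with log2(CPM + 2) and 0.39 to 0.41 without 1 fish. The first component held 39.7% under library totals, 39.6% at 50 CPM and 27.1% to 33.2% without 1 fish. Of the 20 most variable genes, 15 to 17 were shared under other scaling, pseudocount, dispersion and 16 libraries, and 16 to 20 without 1 fish. Of 36 relations 0 passed under library totals.

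Same-numbered wild-type and knockout libraries correlated at -0.04 to 0.28 (7 pairs; 3 of 7 wild-type libraries correlated best with their own number), with a median of 0.14 against -0.02 for other numbers. Of the 7 pairs 5 were above 0.1, short of the limit set, which asked for all, so the fish were not treated as paired. With a replicate block, which leaves few degrees of freedom, edgeR called 0 genes for blood, per3 and fabp11a, 1 for skin and 4 for connective tissue.

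Shallow libraries limit low genes: counts of 32 to 94 lie behind smyhc1, of 8 to 221 behind fosab and of 20 to 60 behind hsp90aa1.2. Missing calls with these markers therefore do not show missing relations.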

Other observations

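Some groups of genes not described above were variable in single fish. Of 16 measured glycogen genes, ppp1r3ca, which encodes a subunit that directs a phosphatase to glycogen, was the most variable, at 25.2 (KO 8), 67.1 (median) and 125 CPM (KO 1). ppp1r3ab, which encodes another such subunit, lay between 14.1 CPM (WT 3) and 80.6 CPM (KO 1), and gyg1b, a gene for glycogenin, the primer of glycogen, between 23.7 CPM (WT 1) and 98.5 CPM (KO 7). The median SD of these 16 genes was 0.40, as for all measured genes.

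txnipb, a glucose-responsive inhibitor of thioredoxin, ran from 15.7 CPM (KO 2) through 46.5 to 206 CPM (KO 8). nupr1a, a stress-response gene, was highest in KO 7 at 246 CPM, with a median of 78.7. irs2b, an insulin-receptor substrate gene, was highest in KO 1 (57.6 CPM) and lowest in WT 8 (6.77 CPM), the fish at the ends of the fkbp5 group. mstnb, a myostatin gene that restrains muscle growth, was highest in WT 7 at 98.7 CPM and lowest in KO 4 at 21.3 CPM.

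Variation between fish in muscle and in liver was compared over 5017 genes measured in both. Across genes, Spearman's rho between the residual SDs was 0.328, and 26 of the 39 genes among the 100 most variable of muscle that were measured in liver lay in the most variable 10% of liver genes.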
